A study of Mus musculus with 4 samples.

Results

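The cells described here are Ly6c2-positive monocytes of mouse CT26 tumours that carried RNA of Vcan (versican) or F10 (coagulation factor X) and little RNA of the monocyte gene Chil3 or of C1q. They were chosen by their own counts of unique molecular identifiers (UMIs, 1 per captured RNA molecule). A barcode was taken if it had at least 200 detected genes, under 15% mitochondrial UMIs, at least 2 UMIs of Ly6c2, at least 1 of Csf1r, at least 2 of Vcan and F10 together and at most 1 of Chil3. It also had under 10 UMIs of C1qa, C1qb and C1qc per 10000, under 1% of UMIs from S100a8 and S100a9, at most 1 UMI of Cd3d and Cd3e, 0 of Ncr1 and under 3 of Siglech. Of 27447 barcodes that passed the filters on genes and mitochondrial UMIs, 1203 met these conditions. They were 191 and 307 cells of control replicates 1 and 2 and 342 and 363 cells of liproxstatin replicates 1 and 2. Values of 4 libraries are given below in this order. These cells are called Vcan F10 monocytes.

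CT26 is a colon carcinoma line of Balb/c mice. All 4 libraries came from CT26 tumours of Balb/c mice aged 9 weeks, 2 from the control group and 2 from mice treated for 8 days with liproxstatin-1, an inhibitor of ferroptosis (iron-dependent cell death by lipid peroxidation). CD45-positive cells were enriched on magnetic microbeads by positive selection and prepared by a 10x Genomics droplet protocol. The title names neutrophil ferroptosis in tumours as the subject. For monocytes the comparison asks which of their RNAs differ when ferroptosis is inhibited. What the control mice received is not given in the sources used here, nor whether the 2 libraries of a group came from separate animals, so p-values measure only the spread between libraries, which may be technical. The library numbers in the deposited file names differ in part from those of the labels, which are used here.

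Ly6C-high monocytes leave the blood through CCR2, enter inflamed and tumour tissue and can mature there into macrophages, losing Ly6c2 and Ccr2 RNA as they do so. On the way they can express genes of extravascular coagulation and provisional matrix: tissue factor (F3) with factor VII activates factor X, while versican, fibronectin (Fn1) and thrombospondin 1 (Thbs1) are secreted matrix or matricellular proteins. Inhba encodes the subunit of activin A, a ligand of the TGF-beta family, and Cxcl3 a chemokine that attracts neutrophils. Such monocytes also respond to low oxygen through hypoxia-inducible factors, which raise glucose uptake and glycolysis.

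The cells carried markers of monocytes. Among the markers that took no part in the choice, Ccr2 was at 1021, 1111, 754 and 876 CPM (UMIs of the gene per 1000000 UMIs of the population), Plac8 at 3023, 3160.4, 2366 and 2582 CPM, and Ptprc, the gene of CD45, at 574, 577, 610.3 and 505 CPM. All 3 were present in every library. The general monocyte genes Fcgr1, Itgam, Lyz2 and Cd14 had means of 822, 614, 14536 and 1858 CPM. Of the genes used in the choice, Ly6c2 was at 1279.7, 999, 935 and 858 CPM. Levels of the genes used in the choice describe it and carry no test.

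Vcan (ENSMUSG00000021614, chromosome 13, 89655312 to 89742509, minus strand, GRCm38) was at 384, 449.6, 415 and 296 CPM and F10 (ENSMUSG00000031444, chromosome 8, 13037308 to 13056676, plus strand) at 209.8, 357, 290.4 and 265 CPM. Vcan was detected in 78.01, 82.7, 82.2 and 77.96% of the cells and F10 in 70.7, 85.3, 84.2 and 77.7%. In T cells of the same libraries, which should lack both, the shares were 0, 0.709, 0.644 and 0.941% and 0.688, 1.72, 1.21 and 1.08%, with median depths of 11237, 12345, 10684 and 9138 UMIs against 16582, 16260.0, 15456 and 12599 UMIs in the monocytes. The 0% was 0 of 436 T cells, which allows a share of up to 0.688% (3 cells of that number). UMIs of Vcan or F10 were required of the monocytes, so their higher shares there follow from the choice and only describe it.

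The F10 promoter is shown as that of a gene that gives these cells their name. It is the RefSeq sequence of GRCm38.p6 at chr8:13037058-13037357, plus strand, from 250 bases before to 50 bases after the transcript start, 5′ to 3′. It held 1 match to ACGTG, the core of the hypoxia response element, on the opposite strand, shown in capitals.
F10 promoter: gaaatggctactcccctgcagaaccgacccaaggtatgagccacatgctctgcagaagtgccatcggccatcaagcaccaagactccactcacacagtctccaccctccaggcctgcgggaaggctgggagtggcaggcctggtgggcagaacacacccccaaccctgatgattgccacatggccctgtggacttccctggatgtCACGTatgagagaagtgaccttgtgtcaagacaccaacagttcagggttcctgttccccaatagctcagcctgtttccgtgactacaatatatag
Of 27025 genes with such an entry, 5886 (21.8%) held this core on either strand, so its presence here is a description.

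The label also rests on Thbs1, Inhba, Cxcl3 and Fn1, which were picked with results of these data known. Thbs1 (ENSMUSG00000040152, chromosome 2, 118111876 to 118127133, plus strand) was at 711, 1082, 1421 and 881 CPM, and Fn1 (ENSMUSG00000026193, chromosome 1, 71585520 to 71653200, minus strand) at 531, 762, 803 and 751 CPM. Both were detected in most of the cells, Thbs1 in 71.2, 66.4, 81.3 and 71.6% and Fn1 in 73.3, 80.5, 80.1 and 83.7%, against 2.06, 2.94, 4.11 and 1.88% and 3.67, 6.18, 5.39 and 4.70% of T cells. Inhba (ENSMUSG00000041324, chromosome 13, 16011851 to 16031621, plus strand) was at 146, 77.6, 304 and 174 CPM and Cxcl3 (ENSMUSG00000029379, chromosome 5, 90786103 to 90789600, plus strand) at 451, 851, 1071 and 363 CPM. Inhba was detected in 21.5, 15.6, 42.7 and 31.4% and Cxcl3 in 17.3, 30.6, 39.2 and 22.9% of the cells. T cells had Inhba in 0.459, 0.811, 1.69 and 0.739% and Cxcl3 in 3.44, 8.11, 5.39 and 1.68%.

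**Figure D1:**
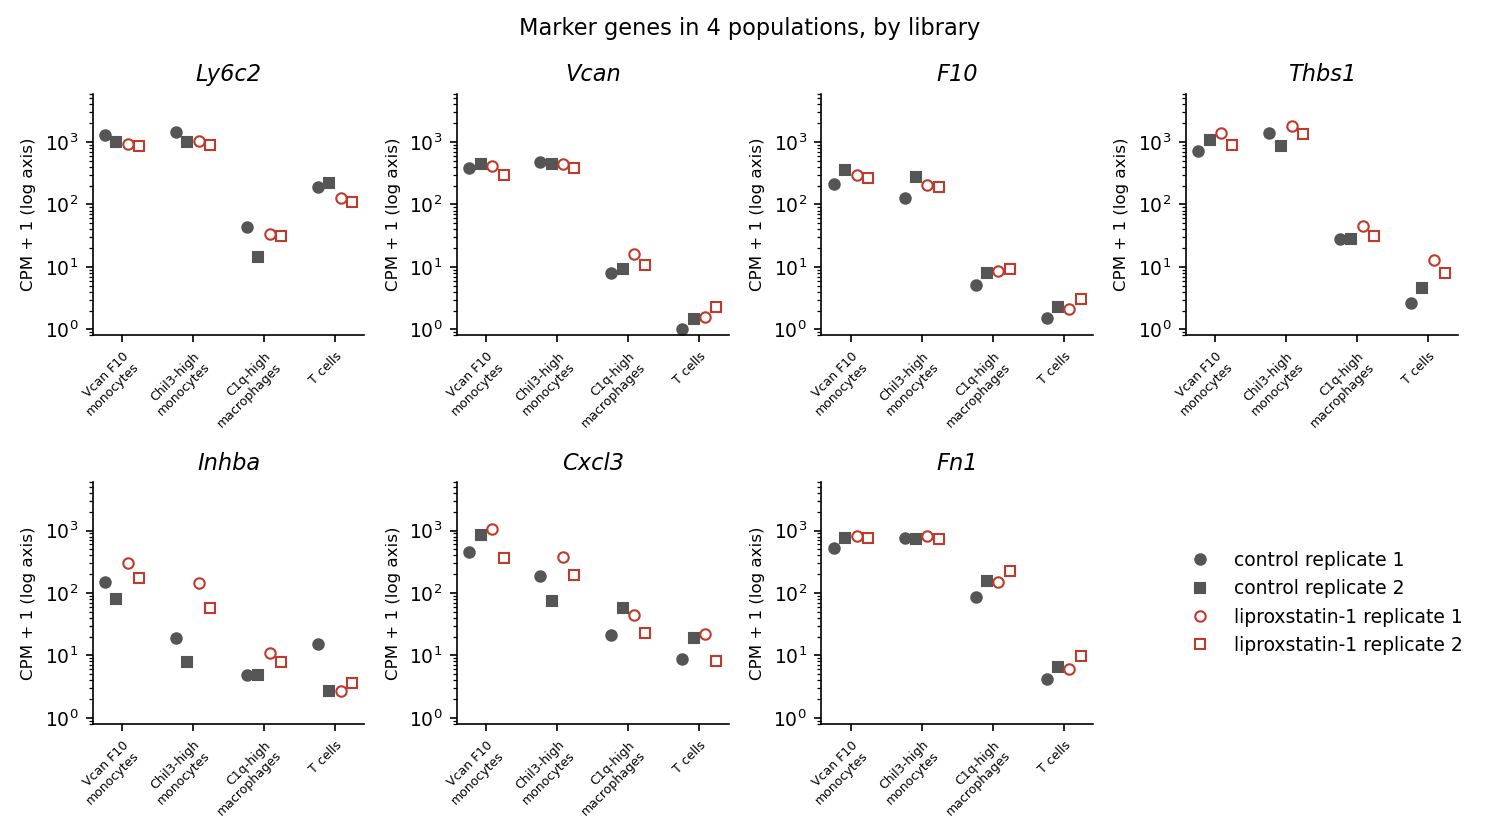
Levels of the 7 marker genes in 4 populations of the same libraries, as CPM + 1 on a log axis (filled points control, open points liproxstatin-1, circles replicate 1, squares replicate 2). Vcan, Thbs1 and Fn1 overlap between Chil3-high and Vcan F10 monocytes, and all 7 genes are lower in C1q-high macrophages in every library.

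Many of the cells held both Vcan and F10 RNA. Both genes were detected in 48.7, 68.1, 66.4 and 55.6% of the Vcan F10 monocytes, Vcan alone in 29.3, 14.7, 15.8 and 22.3% and F10 alone in 21.99, 17.3, 17.8 and 22.04%. Cells with both genes had the highest mean levels of Thbs1 (1333 CPM over the 4 libraries, against 446 with Vcan alone and 578 with F10 alone), Fn1 (915, 386 and 449 CPM) and Cxcl3 (975, 109 and 351 CPM). Inhba differed between the single-gene cells. It was at 160.3, 57.3, 351 and 265 CPM in cells with F10 alone and at 2.64, 1.10, 96.9 and 39.1 CPM in those with Vcan alone, higher with F10 in each library. The lipid transport gene Apoe was also higher with F10 alone, at 3206, 2310.0, 4276 and 5486 CPM against 1190.2, 1882, 2701 and 3529 CPM. The subsets were cut from the counts that chose the cells, so these values carry no test, and their share of cells depends on depth.

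Monocytes just inside the threshold, with exactly 2 UMIs of Vcan and F10, had mean levels of 335 CPM for Thbs1, 336 for Fn1, 186 for Cxcl3 and 55.9 for Inhba. Monocytes with 1 such UMI, just outside, had 196, 311, 112 and 38.8 CPM, and those with 0 had 104, 153, 18.5 and 11.01 CPM. The MHC class II gene H2-Ab1 was at 2047, 2071 and 3237 CPM. These are means over the 4 libraries, and their order did not hold in each: in the first liproxstatin library Fn1 was at 283 CPM just inside and 491 CPM just outside, and in the second H2-Ab1 was at 2295 and 1822 CPM.

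Summed levels of other cells' markers were taken in each library. The 13 T cell markers summed to 14.6, 30.4, 23.5 and 21.5 CPM and the 8 B cell markers to 46.2, 29.3, 15.8 and 34.1 CPM, with Pax5 among those at 0. The 12 neutrophil markers summed to 217, 313, 413 and 287 CPM. The 10 C1q macrophage markers, of which Apoe was the highest, summed to 3384, 2927, 4936 and 4824 CPM. This sum, Apoe included, was higher in both liproxstatin libraries. The 8 nonclassical monocyte markers summed to 462, 411, 447 and 381 CPM, with Nr4a1, also an immediate early gene, the highest. Cells with the highest doublet scores numbered 0, 8, 6 and 9. Pairs of libraries shared 3 to 19 kept barcodes, none of them of these cells.

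With the main thresholds, Vcan F10 monocytes were a smaller share of the CD45-enriched cells in both liproxstatin libraries than in both control libraries. The margin is one that 2 libraries a group cannot test at the 0.05 level. They made up 4.92% (exact Clopper-Pearson 95% interval 4.26 to 5.65) and 4.63% (4.14 to 5.16) of kept barcodes in control against 4.16% (3.74 to 4.61) and 4.17% (3.76 to 4.61) in liproxstatin libraries. The intervals cover counting error only. The group means were 4.77% ± 0.207 (SD, n = 2) and 4.16% ± 0.00675, a difference of -0.612 percentage points with p = 0.333 by a two-sided exact permutation test, the smallest p that 2 against 2 libraries allow.

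The balance with Chil3-high monocytes differed by more. Those were taken by the same conditions with at least 2 UMIs of Chil3, a chitinase-like gene of monocytes that recently left the bone marrow, and with no condition on Vcan or F10. They made up 1.34% and 0.829% of kept barcodes in control against 3.61% and 3.04% in liproxstatin libraries, with 52, 55, 297 and 265 cells. Of the 2 kinds together, Vcan F10 monocytes were 78.6% and 84.8% in control against 53.5% and 57.8% in liproxstatin libraries, means of 81.7% ± 4.39 and 55.7% ± 3.03 (SD, n = 2). The groups did not overlap, and the exact permutation p was again 0.333. C1q-high macrophages, by contrast, were 37.8%, 41.2%, 37.8% and 41.7% of kept barcodes. The 2 monocyte kinds were divided by Chil3 UMIs, so this balance and the smaller share of Vcan F10 monocytes depend on that limit. Their sum was 243 of 3881 and 362 of 6633 kept barcodes in control libraries. In liproxstatin libraries it was 639 of 8224 and 628 of 8709. Whether the share of monocytes with Vcan or F10 RNA differs without a limit on Chil3 was not tested.

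Few Vcan F10 monocytes carried RNA of proliferation genes. Cells with at least 2 UMIs of the proliferation genes Mki67 and Top2a were 12 of 191 and 19 of 307 in control against 8 of 342 and 8 of 363 in liproxstatin libraries, or 6.28% and 6.19% against 2.34% and 2.20% (exact permutation p = 0.333, two-sided). Cells were not thinned for this count, the median depth was lowest in liproxstatin replicate 2, and its part was not tested. Summed over all cells the order was less clear, with Mki67 at 22.5 and 16.9 CPM in control against 4.92 and 16.2 CPM in liproxstatin libraries, so that liproxstatin replicate 2 lay near control replicate 2.

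**Figure D2:**
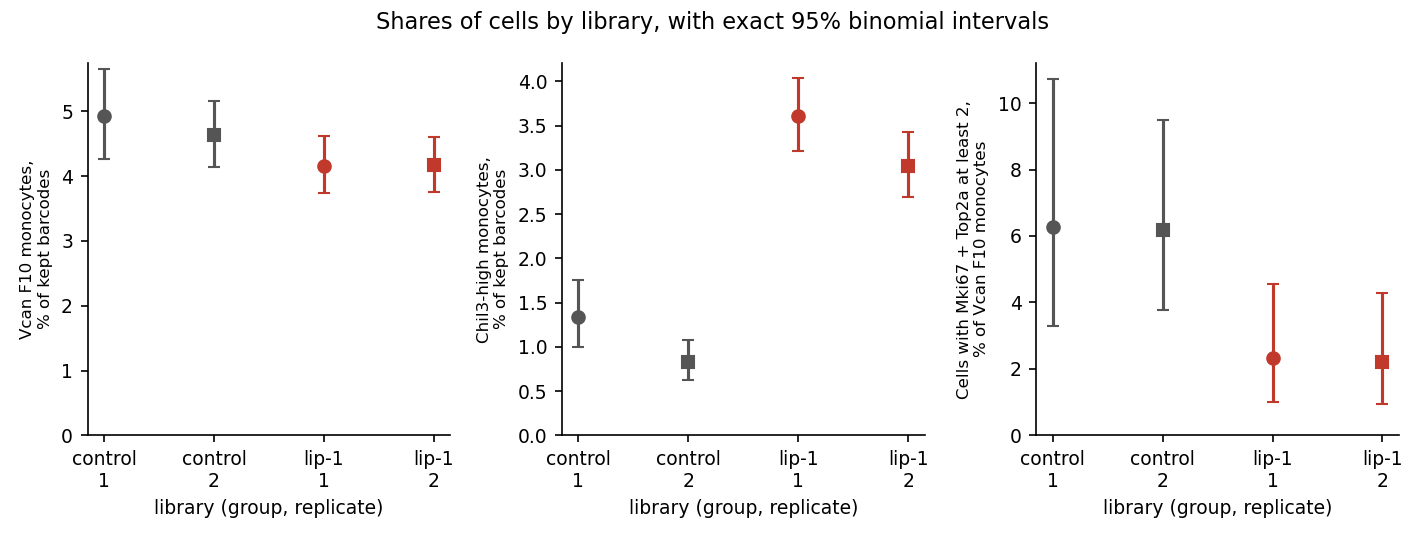
Share of Vcan F10 monocytes and of Chil3-high monocytes among kept barcodes, and of cells with at least 2 UMIs of Mki67 and Top2a among Vcan F10 monocytes, in percent for each library with exact 95% binomial intervals (grey control, red liproxstatin-1). Vcan F10 monocytes run from 4.16% to 4.92%, while Chil3-high monocytes are at 0.829% and 1.34% in control against 3.04% and 3.61% in liproxstatin libraries.

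Against Chil3-high monocytes of the same libraries, Vcan F10 monocytes had higher RNA of most hypoxia and glycolysis genes and of some inflammatory and macrophage maturation genes, and lower RNA of genes such as Lcn2, Cd177 and Hp. Of 10142 genes tested, 528 were higher and 478 lower at an adjusted p of at most 0.05, which is 9.92% of the genes called (5.21% upward and 4.71% downward). All adjusted p come from edgeR's quasi-likelihood test with Benjamini-Hochberg adjustment over all genes tested, with the library as a block in comparisons of populations, and log2 fold changes are given ± SE. Both populations were cut by Chil3, Vcan and F10 counts of the same cells, so how far other genes follow those 3 cannot be told apart from the comparison. The share of all genes without overlap between the populations was not taken, so such statements below only describe the gene named. Of the marker genes outside the choice none passed: Thbs1 differed by -0.39 ± 0.26 (adjusted p = 0.522), Fn1 by -0.09 ± 0.08 (0.592), Inhba by 1.60 ± 0.35 (0.112) and Cxcl3 by 1.65 ± 0.49 (0.192). Chil3-high monocytes had Vcan at 477, 442, 442 and 387 CPM without having been chosen for it.

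Coagulation genes divided between the populations. F7 (ENSMUSG00000031443, chromosome 8, 13026034 to 13035809, plus strand), which encodes factor VII and lies just upstream of F10, was at 17.2 and 12.6 CPM in control against 20.2 and 10.3 CPM in liproxstatin libraries and at 4.58, 3.95, 3.91 and 4.996 CPM in Chil3-high monocytes, a log2 fold change of 1.82 ± 0.24 (adjusted p = 2.4e-05). F3, tissue factor, the cell-surface partner of factor VII, was higher by 1.08 ± 0.22 (adjusted p = 0.00171). F5, the cofactor of factor X, went the other way: it was at 13.7, 15.9, 15.8 and 9.67 CPM in Vcan F10 monocytes and 33.2, 35.5, 37.3 and 33.9 CPM in Chil3-high monocytes, lower, at a log2 fold change of -1.36 ± 0.14 with no overlap. F13a1, the fibrin cross-linking transglutaminase, was lower, at a log2 fold change of -0.30 ± 0.07, as was Pros1, which encodes the anticoagulant protein S, at -1.11 ± 0.19. Of 14 tested genes of the coagulation list, 5 were higher and 3 lower, with a median of -0.03.

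**Figure D3:**
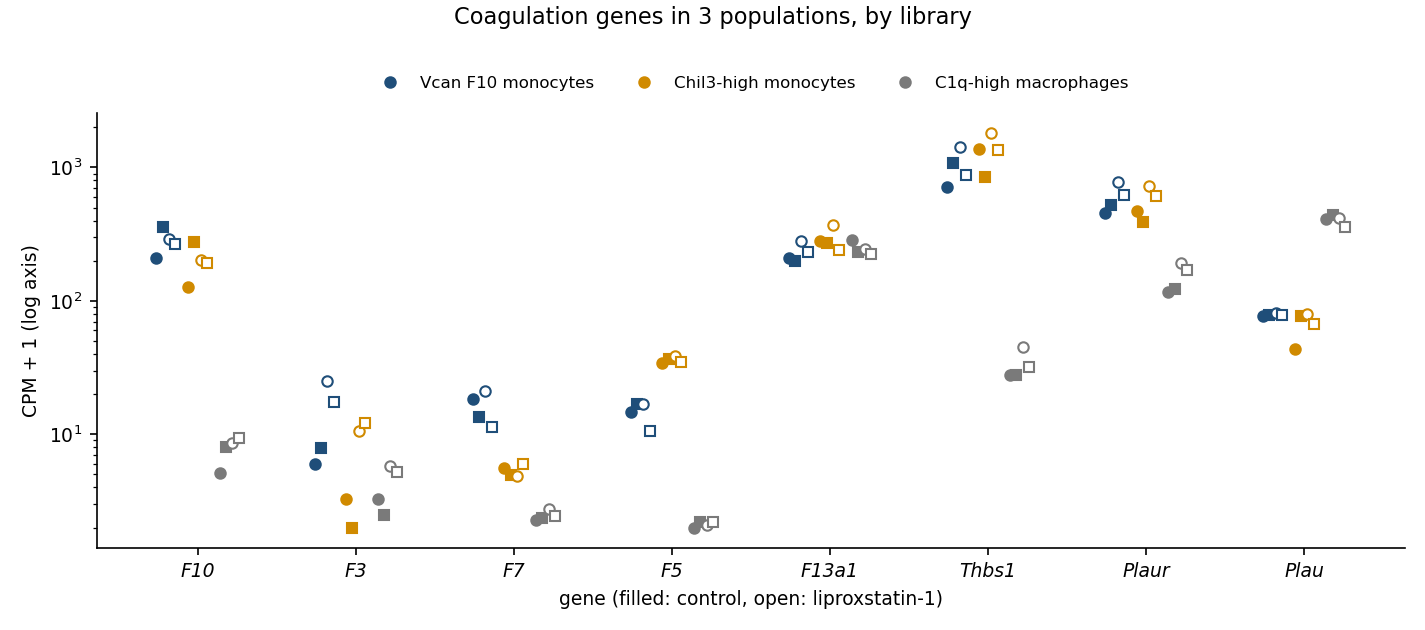
CPM + 1 on a log axis for 8 coagulation and fibrinolysis genes in 3 populations, by library (filled control, open liproxstatin-1, circles replicate 1, squares replicate 2). F7 is higher and F5 lower in Vcan F10 monocytes than in Chil3-high monocytes in every library, and the open blue points of F3 lie above the filled ones.

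Genes of hypoxia and glycolysis were higher nearly as a whole. Of the 28 genes of this list that were tested, 24 were higher in Vcan F10 monocytes and 0 lower, with a median log2 fold change of 0.57, against 0.00060 over all genes. Hilpda, a lipid droplet protein induced in low oxygen (ENSMUSG00000043421, chromosome 6, 29272488 to 29275446, plus strand), was at 366 and 444 CPM in control against 756 and 431 CPM in liproxstatin libraries, against 93.8, 121, 301 and 135 CPM in Chil3-high monocytes. Within each treatment group the populations did not overlap, and the log2 fold change was 1.66 ± 0.09 (adjusted p = 1.4e-08). Bnip3, a mitophagy receptor, was higher by 1.19 ± 0.09, Ndrg1 by 0.95 ± 0.07, the oxygen sensor Egln3 by 1.12 ± 0.12, the glucose transporter Slc2a1 by 0.56 ± 0.07 and lactate dehydrogenase Ldha by 0.59 ± 0.05. The 4 that did not pass were Pfkfb4 (-0.40 ± 0.14), Hk1 (0.05 ± 0.10), Bnip3l (0.12 ± 0.07) and Car9 (0.66 ± 0.44), named after their values were seen. Over 12 other settings between 17 and 25 genes of the list were higher, the fewest without liproxstatin replicate 1, where 1 was lower. T cells also had Hilpda, at 241, 132, 322 and 249 CPM.

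Promoters of 3 genes of this group, picked after their values were seen, are shown because the group was higher together, with the core ACGTG of the hypoxia response element in capitals wherever it occurs on either strand (CACGT on the strand shown; both cores overlap in CACGTG). They are RefSeq sequences of GRCm38.p6, from 250 bases before to 50 bases after a transcript start, 5′ to 3′ in the direction of the gene: Hilpda chr6:29272376-29272675, plus strand (the second of 2 starts, where the window of the other start held no match), Slc2a1 chr4:119108495-119108794, plus strand and Bnip3 chr7:138909457-138909756, minus strand.
Hilpda promoter: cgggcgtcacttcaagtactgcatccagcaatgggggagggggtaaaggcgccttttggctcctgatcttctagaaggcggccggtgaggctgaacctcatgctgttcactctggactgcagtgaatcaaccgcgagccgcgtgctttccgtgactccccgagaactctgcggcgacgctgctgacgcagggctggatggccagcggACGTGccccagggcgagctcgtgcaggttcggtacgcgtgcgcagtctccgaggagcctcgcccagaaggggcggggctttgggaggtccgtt
Slc2a1 promoter: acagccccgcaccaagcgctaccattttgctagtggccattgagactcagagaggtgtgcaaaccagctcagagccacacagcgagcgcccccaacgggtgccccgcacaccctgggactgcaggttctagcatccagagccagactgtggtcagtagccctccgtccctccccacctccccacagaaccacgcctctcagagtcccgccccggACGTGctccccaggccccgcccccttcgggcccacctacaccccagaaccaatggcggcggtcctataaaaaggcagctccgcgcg
Bnip3 promoter: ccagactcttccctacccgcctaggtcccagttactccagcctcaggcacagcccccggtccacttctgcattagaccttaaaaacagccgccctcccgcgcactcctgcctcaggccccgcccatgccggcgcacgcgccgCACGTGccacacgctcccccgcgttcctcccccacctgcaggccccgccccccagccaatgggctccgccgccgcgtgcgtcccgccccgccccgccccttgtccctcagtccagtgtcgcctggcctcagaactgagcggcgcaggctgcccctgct
The core was present in the promoters of 17 of the 25 tested genes of the list that matched the RefSeq table (68.0%), against 21.8% of all genes with an entry. Among the genes of the list that were higher it was 15 of 22 (68.2%). By promoter window the list had 18 of 33 (54.5%), against 19.6% of all windows. The list was chosen as one of hypoxia genes, so these shares describe the list and its windows, not the difference between the populations.

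**Figure D4:**
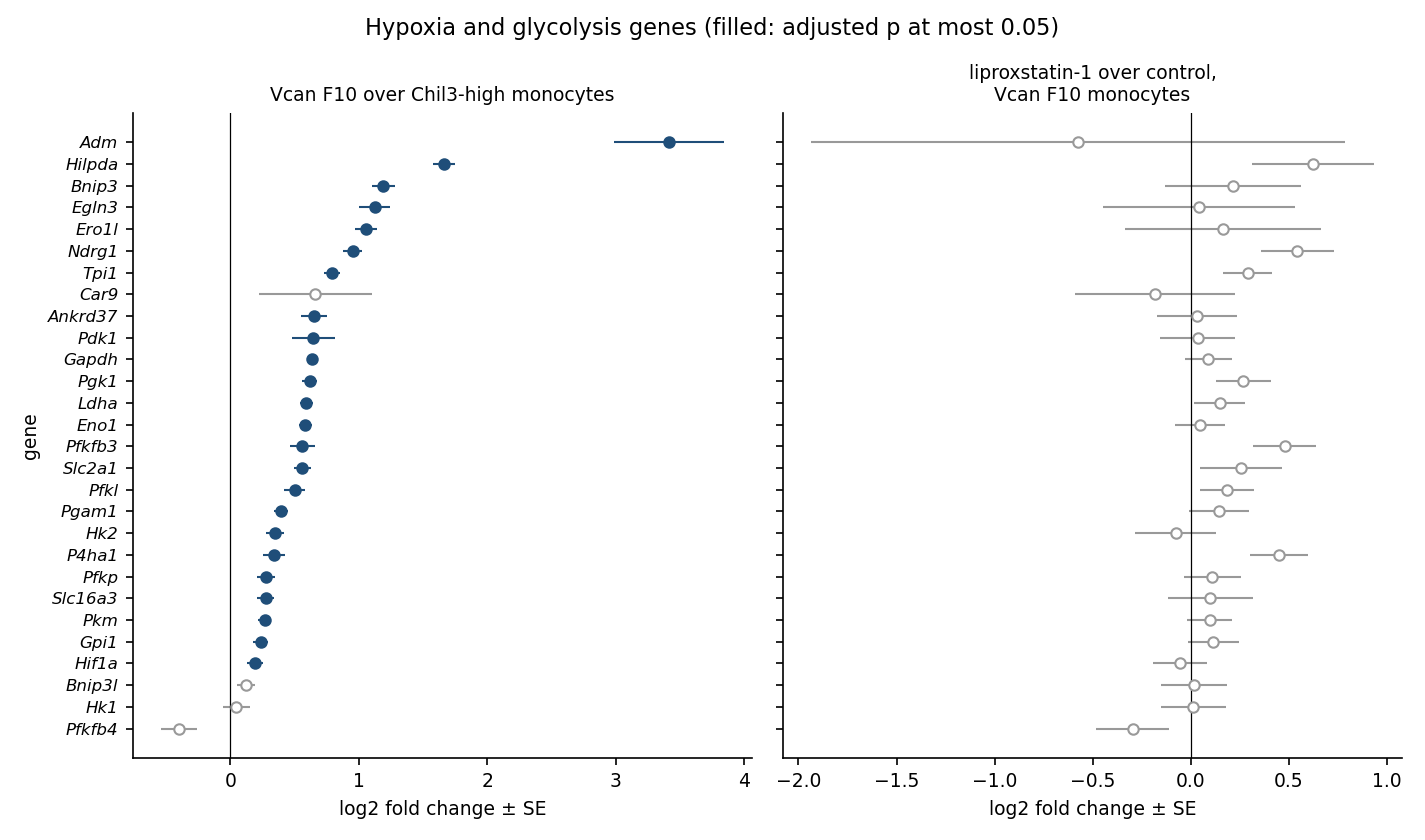
Log2 fold changes with SE of the 28 tested hypoxia and glycolysis genes, left for Vcan F10 over Chil3-high monocytes and right for liproxstatin-1 over control within Vcan F10 monocytes (filled points have an adjusted p of at most 0.05). On the left 24 points are filled and lie above 0. On the right none is filled.

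Secreted mediators were the next group. Il1a, the alarmin interleukin 1 alpha, was higher by 1.71 ± 0.20, Tnf by 0.78 ± 0.13, Ptgs2, the inducible cyclooxygenase, by 0.59 ± 0.12 and the angiogenic factor Vegfa by 0.79 ± 0.07. Of 21 tested genes of the inflammatory list 7 were higher and 0 lower (median 0.32). Il1b was not among them, at 3641, 1908, 3801 and 3569 CPM against 4011, 2054, 3334 and 3501 CPM (0.01 ± 0.05). Of 9 tested CXC chemokines 3 were higher: Ppbp, the platelet basic protein (4.60 ± 0.36), at 53.8, 5.81, 16.6 and 10.7 CPM and at 0, 0.987, 0.782 and 0.555 CPM in Chil3-high monocytes, Cxcl14 (1.28 ± 0.18) and Cxcl16 (0.75 ± 0.10). The neutrophil attractants Cxcl1 and Cxcl2 had 1.42 ± 0.36 and 0.62 ± 0.16 with adjusted p of 0.146 and 0.141. Among CC chemokines Ccl3, Ccl6 and Ccl9 were higher, and the monocyte attractants Ccl2 and Ccl7 had 0.05 ± 0.05 and 0.29 ± 0.31 (adjusted p 0.552 and 0.701).

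Of 22 tested maturation genes 12 were higher, among them the lipid receptor Trem2 (0.52 ± 0.08), the mannose receptor Mrc1 (0.76 ± 0.12) and the glycoprotein Gpnmb (3.57 ± 0.35), and only the selenium carrier Selenop was lower (-0.44 ± 0.07). The number higher ran from 6 to 14 over other settings, lowest with both Vcan and F10 required. Spp1, osteopontin (ENSMUSG00000029304, chromosome 5, 104435118 to 104441050, plus strand), was at 1654 and 2302 CPM in control against 2501 and 2169.6 CPM in liproxstatin libraries and at 694, 990.3, 1162 and 1063 CPM in Chil3-high monocytes, a log2 fold change of 1.16 ± 0.05 (adjusted p = 2.1e-12), and T cells held 665, 1286, 732 and 859.7 CPM. The T cell values overlap those of Chil3-high monocytes and lie below those of Vcan F10 monocytes in every library. The collagenase Mmp13 was higher by 1.98 ± 0.15, the membrane-bound Mmp14 by 1.0 ± 0.10, and in the activin list Fst, the activin antagonist follistatin, by 1.34 ± 0.33 at 4.09, 4.88, 8.37 and 7.30 CPM. Cd274, the gene of PD-L1, was higher by 0.63 ± 0.08 and the costimulatory receptor Tnfrsf9 by 3.20 ± 0.23, at 36.5, 36.01, 24.4 and 23.5 CPM where T cells had 521, 533, 543 and 539 CPM. Of 9 tested MHC class II genes 3 were higher (H2-DMb1, H2-DMb2 and Cd74) and 0 lower, with a median of 1.15. All 9 had positive fold changes and an unadjusted p under 0.05 in edgeR. Peptide loading gene H2-DMb1 was higher by 1.19 ± 0.16, while H2-Ab1 had 1.40 ± 0.26 and missed the threshold (adjusted p = 0.0801). Mt2, Fpr1, Rgs1 and Ly6i, the last a near copy of other Ly6 genes and so uncertain, were higher by 1.21 ± 0.23, 1.32 ± 0.22, 1.18 ± 0.09 and 1.54 ± 0.18. Mt2 lost its call in 4 of 12 other settings, with a log2 fold change down to 0.60 and an adjusted p up to 0.188, H2-DMb1 lost it in 2, and Rgs1 and Hilpda in 1 each.

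Hp, haptoglobin, was at 143, 222, 167 and 193 CPM against 455, 619, 415 and 367 CPM in Chil3-high monocytes (-1.31 ± 0.11, adjusted p = 7.0e-05). No Hp library overlapped between populations. Lcn2 (-2.73 ± 0.35), Cd177 (-2.10 ± 0.15), Pglyrp1 (-1.96 ± 0.21) and Lrg1 (-1.86 ± 0.32), genes also known from neutrophil granules and surfaces, were lower, as were Mgst1 (-1.16 ± 0.10), Pdlim1 (-1.39 ± 0.21), Arsb (-1.33 ± 0.14), Cd244a (-1.31 ± 0.14), Pdcd4 (-1.22 ± 0.18), Arhgef37 (-1.16 ± 0.17) and Plac8 (-0.58 ± 0.05). Over 12 other settings Pdlim1 lost its call in 2 and Lrg1 in 1. T cells also held Pglyrp1, at 259, 297, 213 and 233 CPM. The control libraries of Chil3-high monocytes rest on 52 and 55 cells, and gating cells thinned to 10000 UMIs left 258 higher and 226 lower.

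Against C1q-high macrophages, cells with at least 1 UMI of Csf1r and at least 10 C1q UMIs per 10000, the Vcan F10 monocytes differed in most genes. Of 13394 genes tested 3644 were higher and 3942 lower, 56.6% of the genes (27.2% upward and 29.4% downward), and every group below is to be read against those shares. Thbs1 was higher by 5.10 ± 0.11, Inhba by 4.89 ± 0.15, Cxcl3 by 4.38 ± 0.18 and Fn1 by 2.39 ± 0.19. Thbs1 was at 26.7, 26.9, 44.00 and 30.8 CPM in the macrophages, below the Vcan F10 monocytes in every library. Besides these, high fold changes were found in Dmkn (6.50 ± 0.31), Hp (6.11 ± 0.39), the protease inhibitor Slpi (5.39 ± 0.36), the integrin Itga1 (5.25 ± 0.12), Ace (4.92 ± 0.42), B3gnt5 (4.79 ± 0.30) and Mcemp1 (4.71 ± 0.12). Ly6c1 (5.26 ± 0.32) and Ly6i (4.84 ± 0.29) share sequence with Ly6c2, which the choice used, and are uncertain.

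Type I interferon-stimulated genes were higher in 28 of 28 tested, with a median log2 fold change of 1.43, against -0.05 over all genes. Isg15, a ubiquitin-like antiviral protein, was at 1159, 671, 701 and 935 CPM against 267, 166, 194 and 240.0 CPM in macrophages (2.10 ± 0.05), Rsad2 (viperin) was higher by 2.54 ± 0.10 and the transcription factor Irf7 by 1.48 ± 0.05. Of 26 NF-kappaB targets 24 were higher and 0 lower (median 0.88), among them Il1b (2.13 ± 0.12) and Nfkbia, the NF-kappaB inhibitor (1.53 ± 0.05). Of 28 immediate early and dissociation-linked genes 22 were higher, and their part in the NF-kappaB count was not tested. Coagulation genes F5, F7, F3 and the urokinase receptor Plaur were higher, F5 by 3.72 ± 0.21 and F7 by 3.45 ± 0.19, while the urokinase gene Plau was lower (-2.26 ± 0.06). The cystine transporter Slc7a11, which supplies glutathione synthesis, was at 50.3, 86.8, 104 and 76.98 CPM in the monocytes and is on the ferroptosis defence list, of which 10 of 25 genes were higher and 9 lower. Differences from Chil3-high monocytes were smaller for the interferon and NF-kappaB lists. There 7 of 28 interferon-stimulated genes were higher and 0 lower (median 0.17). Of 26 NF-kappaB targets 8 were higher and 1 lower (median 0.30), where 5.21% of all genes were higher and 4.71% lower.

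Cell cycle genes were lower in 36 of 36 tested, with a median of -2.97. Mki67 was at 159, 144, 145 and 111 CPM in the macrophages, above every value of the monocytes. Of 22 maturation genes 19 were lower and 2 higher, among the latter Gpnmb (2.79 ± 0.21). The genes with the largest deficits were the complement component C6 (-5.89 ± 0.27), the hyaluronan receptor Lyve1 (-5.75 ± 0.16), Gas6, a bridge for dead cells (-5.28 ± 0.12), Cxcl13 (-5.09 ± 0.18), Col14a1 (-5.02 ± 0.22), Fam167b (-4.83 ± 0.21), ceruloplasmin Cp (-4.83 ± 0.18), Fcna (-4.82 ± 0.20), Fcrls (-4.77 ± 0.14), Ccl8 (-4.58 ± 0.33), Itga9 (-4.32 ± 0.17) and Rcn3 (-4.26 ± 0.22). Macrophages had more UMIs per cell than the monocytes, with medians of 32596, 34571, 29518 and 24424.

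Within Vcan F10 monocytes, liproxstatin-1 went with higher RNA of a small set of genes that includes Cd38, tissue factor and 3 glucocorticoid-inducible genes. It also went with lower Cx3cr1 and Hist1h4d and, at a low level and not called by DESeq2, lower Mmp9. Of 10047 genes tested, 13 rose and 3 fell, 0.159% of the genes (0.129% upward and 0.0299% downward), with 600 genes (5.97%) at an unadjusted p under 0.05 and 21 by DESeq2, 12 of them shared. For 36.3% of all genes the control and liproxstatin libraries did not overlap. Both liproxstatin libraries lay above both controls for 11.1% of all genes and below them for 25.2%. These shares are the background of each such statement below. Without liproxstatin replicate 1 or 2 the test called 1 and 2 genes, none of them of these 16, and without control replicate 1 or 2 it called 203 and 71, all 16 among them. Each of these fits leaves a group of 1 library, which is assumed to vary like the other group, so neither the loss nor the retention of a call shows how stable it is.

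Cd38 (ENSMUSG00000029084, chromosome 5, 43868553 to 43912375, plus strand), an enzyme that consumes NAD and a marker of activated myeloid cells, was at 5.84 and 8.82 CPM in control against 35.7 and 30.8 CPM in liproxstatin libraries. The groups did not overlap, and the log2 fold change was 2.21 ± 0.23 (adjusted p = 0.000697). It was detected in 9.42, 8.79, 30.7 and 21.8% of the cells, and after thinning each cell to 5000 UMIs in 1.60, 3.93, 12.4 and 10.8%. T cells, which also express Cd38, had it at 25.4, 28.4, 28.9 and 27.1 CPM, without such a step.

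F3 (ENSMUSG00000028128, chromosome 3, 121723537 to 121735048, plus strand), tissue factor, the receptor that starts the extrinsic pathway toward factor X, was at 4.97 and 6.94 CPM in control against 24.03 and 16.6 CPM in liproxstatin libraries. Both liproxstatin libraries lay above both controls, at a log2 fold change of 1.81 ± 0.27 (adjusted p = 0.0127). It was detected in 4.71, 3.58, 14.6 and 11.8% of Vcan F10 monocytes against 1.15, 0.405, 0.322 and 0.403% of T cells, and thinned to 5000 UMIs in 2.67, 2.30, 6.76 and 6.35%. The liproxstatin libraries were also the higher ones in Chil3-high monocytes (2.29, 0.987, 9.58 and 11.1 CPM) and C1q-high macrophages (2.25, 1.51, 4.81 and 4.18 CPM), and the difference in response passed against neither (adjusted p 1 and 0.874). F3 was the only gene of 14 tested on the coagulation list to pass, with a list median of 0.12 against 0.0019 over all genes. Its partners F7 (0.13 ± 0.35) and F5 (-0.15 ± 0.25) had adjusted p of 0.998 and 0.998. Plaur, at 453 and 524 CPM in control against 770.3 and 620.4 CPM in liproxstatin libraries, had 0.58 ± 0.14 and did not pass (adjusted p = 0.16).

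The promoter of F3 is shown as that of the coagulation gene that rose. It is the RefSeq sequence of GRCm38.p6 at chr3:121723287-121723586, plus strand, 250 bases before to 50 bases after the start, with matches to the AP-1 motif TGANTCA (either strand) in capitals.
F3 promoter: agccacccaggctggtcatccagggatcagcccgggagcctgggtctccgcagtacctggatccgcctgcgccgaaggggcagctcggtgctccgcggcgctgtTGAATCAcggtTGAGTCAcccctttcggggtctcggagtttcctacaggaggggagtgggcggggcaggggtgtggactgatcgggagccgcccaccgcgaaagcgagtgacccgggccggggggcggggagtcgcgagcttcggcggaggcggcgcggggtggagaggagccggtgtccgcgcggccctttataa
The window held 2 matches. The same motif was found in 2425 of 27025 genes of the promoter table (8.97%) and in 5 of the 9 risen genes, of 13, that matched the table (55.6%). Some of these have several starts. By promoter window the counts were 2565 of 32851 (7.81%) and 6 of 21 (28.6%), and overlapping windows of Tmcc3 shared the same match. The motif ACANNNTGT of the glucocorticoid receptor was in 0 of the 9 and in 7.90% of all. No match says only that these letters are not in these windows.

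The glucocorticoid-inducible list had 3 risen genes of 20 tested and 0 fallen, with a median of 0.37. Tsc22d3 (ENSMUSG00000031431, chromosome X, 140539528 to 140600659, minus strand), the glucocorticoid-induced leucine zipper, was at 60.2 and 60.2 CPM in control against 125 and 144 CPM in liproxstatin libraries and rose by 1.23 ± 0.14 (adjusted p = 0.002). Klf9 (ENSMUSG00000033863, chromosome 19, 23141226 to 23168134, plus strand), a transcription factor induced by glucocorticoids, was at 14.3 and 13.5 CPM in control against 29.3 and 31.6 CPM in liproxstatin libraries and rose by 1.20 ± 0.19, a call lost in 5 of 14 other settings. Fkbp5, a co-chaperone of the glucocorticoid receptor, rose by 1.43 ± 0.24 at a low level of 7.01, 6.19, 17.1 and 16.4 CPM. The clock gene Per1, also glucocorticoid-inducible, at 25.4 and 15.8 CPM in control against 52.8 and 44.6 CPM in liproxstatin libraries, had 1.35 ± 0.23 and missed the threshold (adjusted p = 0.0571), and so did Dusp1 (0.65 ± 0.13, adjusted p = 0.0782). In other cells of these libraries Tsc22d3 stood at 56.1, 39.5, 144 and 183 CPM in Chil3-high monocytes, 58.1, 53.6, 121 and 126 CPM in C1q-high macrophages and 73.7, 70.1, 223 and 219 CPM in T cells, and the difference in response did not pass against either myeloid population (adjusted p 0.405 and 0.977). Without either liproxstatin library 0 genes of the list passed, and by DESeq2 those of the list that passed were Tsc22d3 and Per1 upward and Cd163 downward. The immediate early and dissociation list, which shares Dusp1 and Zfp36 with it, had 0 of 27 genes past the threshold (6 with an unadjusted p under 0.05, 0 by DESeq2) and a median of 0.33. Its fold changes were positive for 24 genes, and both liproxstatin libraries lay above both controls for 13, where 11.1% of all genes did. Its part in the glucocorticoid-inducible counts was not tested.

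Of the other genes that rose, Apoe (ENSMUSG00000002985, chromosome 7, 19696109 to 19699188, minus strand), the lipid carrier of macrophages, was at 1692 and 1366 CPM in control against 2749 and 3279 CPM in liproxstatin libraries, a log2 fold change of 1.04 ± 0.14 (adjusted p = 0.0127). The groups did not overlap. T cells held Apoe at 156, 145, 138 and 134 CPM, with the liproxstatin libraries the lower ones. Apoe was also the highest of the C1q macrophage markers, and the rise of their summed level given above includes its own. Of the 7 of these markers tested outside the choice, all had positive fold changes (median 0.27) and only Apoe passed. Both liproxstatin libraries lay above both controls for 2 of the 7, where 11.1% of all genes did. No other gene of the 22 of the maturation list passed. Tmcc3 rose by 1.84 ± 0.27 with levels of 7.89, 4.50, 20.4 and 20.3 CPM, Sgms1, a sphingomyelin synthase, by 1.15 ± 0.19, Ecm1 by 0.83 ± 0.14, the G-protein regulator Rgs1 by 0.79 ± 0.14 and Cd14, the lipopolysaccharide co-receptor, by 0.77 ± 0.14. Cd14 was at 1451 and 1384 CPM in control against 2598 and 2001 CPM in liproxstatin libraries, and its call was lost in 7 of 14 other settings, that of Rgs1 and Tmcc3 in 4 and that of Apoe and Ecm1 in 3. Rasd1, a small GTPase known as dexamethasone-induced, had 15 and 22 UMIs in liproxstatin libraries but 0 in each control. Pooled over the liproxstatin libraries its level was 10.2-fold a floor of 3 counts over the control group. Of the 22 UMIs 14 came from 1 cell, and the fold includes them, so it is no lower bound. The last gene that rose, Gm17056, has no name beyond its model, and it, Fkbp5, Rasd1 and Mmp9 were named after their values were seen.

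**Figure D5:**
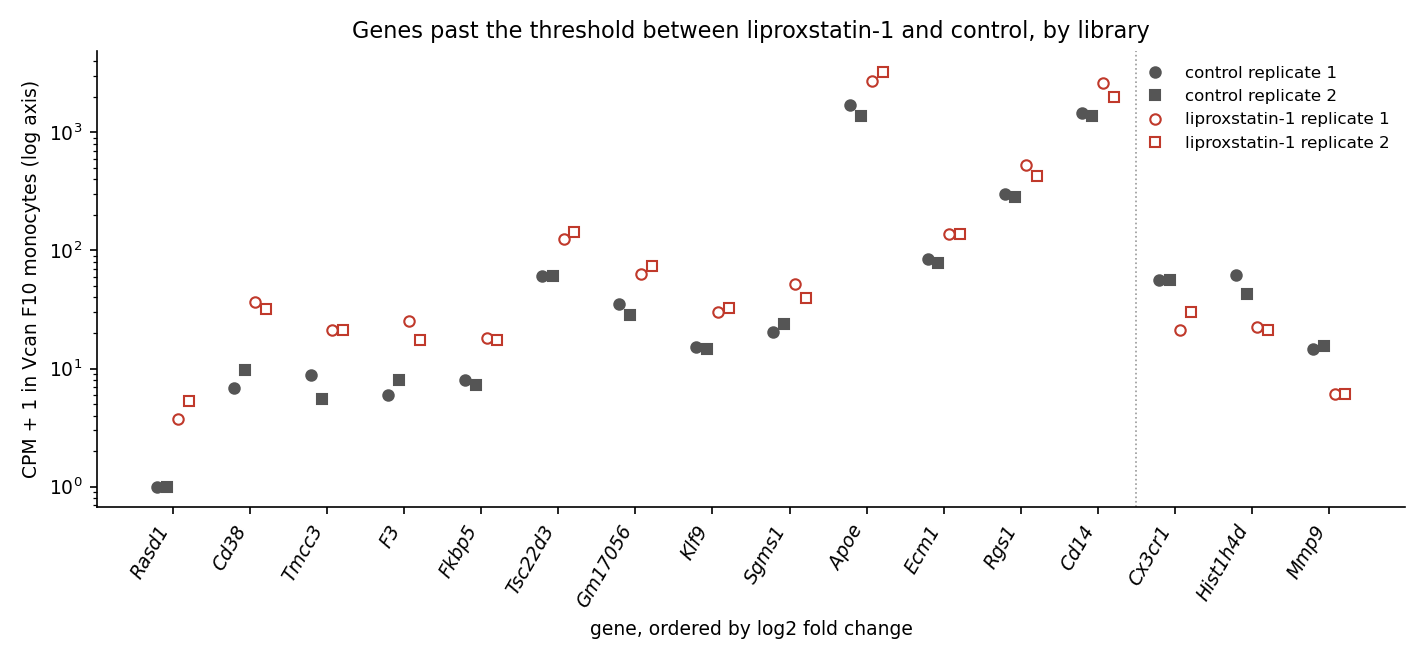
CPM + 1 in Vcan F10 monocytes, on a log axis, of the 16 genes past the threshold, ordered by log2 fold change (filled points control, open points liproxstatin-1, circles replicate 1, squares replicate 2, and the 13 genes that rose stand left of the dotted line). The open points lie above the filled ones for all genes on the left and below them for Cx3cr1, Hist1h4d and Mmp9.

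Cx3cr1 (ENSMUSG00000052336, chromosome 9, 119901616 to 120069879, minus strand), the fractalkine receptor of patrolling monocytes and tissue macrophages, was at 54.9 and 55.7 CPM in control against 20.03 and 29.2 CPM in liproxstatin libraries. Both liproxstatin libraries lay below both controls, as for 25.2% of all genes, and Cx3cr1 fell at a log2 fold change of -1.10 ± 0.18 (adjusted p = 0.0271). Chil3-high monocytes had 56.1, 76.02, 32.1 and 35.3 CPM and C1q-high macrophages 244, 197, 223 and 215 CPM, and in the latter the response differed. Of the 8 nonclassical monocyte markers tested, 7 had negative fold changes and 0 passed in edgeR (2 at an unadjusted p under 0.05, and 0 by DESeq2), with a median of -0.75, and their part in the fall of Cx3cr1 was not tested. Treml4, at 18.7 and 26.8 CPM in control against 10.7 and 9.28 CPM in liproxstatin libraries, had -1.13 ± 0.23 (adjusted p = 0.0743). The matrix metalloproteinase Mmp9 fell at -1.39 ± 0.25 at a low level, 13.7, 14.4, 5.10 and 5.13 CPM, where T cells had 2.64, 2.70, 2.26 and 0.999 CPM. By DESeq2 0 genes of the matrix list, which holds Mmp9, passed. Mmp9 lay under the 20 CPM asked of named genes and was not among the genes followed over other settings.

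Hist1h4d (ENSMUSG00000061482, chromosome 13, 23581598 to 23582735, plus strand), 1 of many near-identical histone H4 genes and therefore uncertain, was at 60.8 and 41.6 CPM in control against 21.3 and 20.3 CPM in liproxstatin libraries and fell at -1.22 ± 0.21 (adjusted p = 0.0421), a call lost in 6 of 14 other settings. The share of cells with Mki67 and Top2a RNA moved with it, as given above, and its part was not tested. Of 33 cell cycle genes 0 passed (2 had an unadjusted p under 0.05, and 0 passed by DESeq2), 24 had negative fold changes and the median was -0.37. Hist2h2ac (-0.82 ± 0.21), Lyl1 (-0.67 ± 0.18), Ccnd2 (-0.60 ± 0.17) and Mical1 (-0.73 ± 0.21) had the next lowest p among negative fold changes and did not pass (adjusted p from 0.203 to 0.423).

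The marker genes themselves did not pass. Inhba had 1.17 ± 0.56 (adjusted p = 0.977), with liproxstatin libraries of 304 and 174 CPM above control libraries of 146 and 77.6 CPM, Thbs1 0.43 ± 0.35 (0.998), Fn1 0.34 ± 0.15 (0.816) and Cxcl3 0.22 ± 0.83 (0.999), whose groups overlapped. The neutrophil attractant Cxcl2 was at 3343 and 3322 CPM in control against 8895 and 5360.5 CPM in liproxstatin libraries with 1.17 ± 0.28 (adjusted p = 0.642). The groups did not overlap for Cxcl2, and it passed under 5 of 14 other settings. Cxcl1, Cxcl9 and Cxcl10 had 1.21 ± 1.09, 0.91 ± 0.62 and 0.12 ± 0.56, Il1b 0.47 ± 0.43, Il1a 0.54 ± 0.90, Tnf 0.01 ± 0.62, Ptgs2 0.58 ± 0.58, Nos2 1.10 ± 0.70, Arg1 0.38 ± 0.20, Vegfa 0.44 ± 0.19, Cd274 0.34 ± 0.24 and Spp1 0.31 ± 0.15. None of these had an adjusted p under 0.811. Ccl2 (-0.16 ± 0.16), Ccl7 (-0.13 ± 0.13), Ccr2 (-0.32 ± 0.12), Plac8 (-0.25 ± 0.11), Hp (0.05 ± 0.18), Mgst1 (0.32 ± 0.14), F13a1 (0.40 ± 0.14), Trem2 (0.26 ± 0.15), H2-Ab1 (0.16 ± 0.31) and Mki67 (-0.83 ± 0.63) did not pass either.

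Of 23 tested genes of ferroptosis defence and 19 that promote it 0 passed in edgeR, and 3 and 0 had an unadjusted p under 0.05 (0 and 0 by DESeq2). Their medians were 0.15 and 0.07. Gpx4, the glutathione peroxidase that detoxifies lipid peroxides, was at 254 and 322 CPM in control against 279 and 311 CPM in liproxstatin libraries with 0.10 ± 0.14 (adjusted p = 0.998). Slc7a11 was at 50.3 and 86.8 CPM in control against 104 and 76.98 CPM in liproxstatin libraries with 0.46 ± 0.28 (0.977), and heme oxygenase Hmox1 had -0.18 ± 0.24 (0.998). Of 28 hypoxia and glycolysis genes, 28 type I interferon-stimulated genes and 26 NF-kappaB targets 0 passed either, with medians of 0.11, -0.11 and 0.19, and 4, 2 and 6 had an unadjusted p under 0.05 (0, 0 and 1 by DESeq2). Of 9 CXC chemokines, 20 inflammatory mediators and 9 MHC class II genes 0 passed, with medians of 0.48, 0.39 and 0.10, and 2, 5 and 0 had an unadjusted p under 0.05 (1, 0 and 0 by DESeq2). The test was also run on data simulated at this depth, with the same preset spread for every gene and changes only in well-counted genes. There it found 69 of 100 genes changed by a log2 fold change of 1 and all 100 of those changed by 2. The spread was not taken from these data, so these shares do not hold for genes that vary more or have fewer counts.

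The response of Vcan F10 monocytes was compared with that of the other 2 myeloid populations by the interaction of population and treatment. Against Chil3-high monocytes the log2 fold change with treatment was higher for 0 genes and lower for 11, of 10142 tested (0.108%). A lower log2 fold change need not be a fall. Before adjustment 563 genes (5.55%) had p under 0.05 in either direction. Inhba was the marker gene among them, with levels of 146, 77.6, 304 and 174 CPM in Vcan F10 monocytes and 18.3, 6.91, 142 and 57.2 CPM in Chil3-high monocytes and a difference of log2 fold changes of -1.86 ± 0.29 (adjusted p = 0.00395). Its liproxstatin libraries lay above its control libraries in both populations, by a wider factor in Chil3-high monocytes. Ly6a (-2.0 ± 0.19), Ccl5 (-2.73 ± 0.43), Pdpn, the gene of podoplanin (-2.01 ± 0.33), Ch25h (-1.71 ± 0.35) and Hist1h2ap (-1.20 ± 0.20) were the others named. Ly6a, an interferon-induced surface gene with near copies, was at 306, 155, 256 and 324 CPM in Vcan F10 monocytes and 51.5, 20.7, 175 and 182 CPM in Chil3-high monocytes. None of the 11 was called when cells were gated after thinning to 10000 UMIs, where 4 other genes were.

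Against C1q-high macrophages the log2 fold change was higher for 6 genes and lower for 11, of 13394 (0.127%, with 0.0448% higher and 0.0821% lower). Cd38 was among the first, at 46.1, 46.5, 77.3 and 73.2 CPM in the macrophages, with a difference of 1.48 ± 0.20 (adjusted p = 0.00465), and so were Apoe (0.82 ± 0.06), the folate receptor Folr2 (1.04 ± 0.17), the collagenase Mmp8 (0.99 ± 0.15) and Timp2 (0.64 ± 0.12). The macrophages had Apoe at 8881, 7537, 9294 and 9728 CPM, where the liproxstatin libraries lay less far above the controls. Of the genes in the other direction, Cx3cr1 differed by -1.14 ± 0.17 (adjusted p = 0.0377), the scavenger receptor Cd163 by -3.40 ± 0.43 with only 12.6, 4.69, 0.910 and 0.592 CPM in the monocytes, and Napsa, Mefv, Fgr and Hspa1b by -1.03 ± 0.12, -0.97 ± 0.15, -0.96 ± 0.13 and -0.89 ± 0.14. Hspa1b, a heat shock gene with the near copy Hspa1a, was at 262, 46.9, 174 and 152 CPM, lowest in control replicate 2.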

How the data were processed

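The deposited values were UMI counts per gene and barcode, 1 matrix per library, made by the authors with Cell Ranger 6.1.1 per the file headers. The submitters' processing notes give the version as Cell Ranger 4 and the genome as mm10. Kept barcodes held 82210930 to 167230783 UMIs per library. Cells were chosen by their own counts, so levels of the genes used are not findings, and the cells, gene lists and tests were chosen with earlier results of these data known. Counts were summed per library and population and tested across the 4 libraries with edgeR 4.0.16 (quasi-likelihood, TMM scaling, low counts filtered, Benjamini-Hochberg adjustment over all genes tested, threshold 0.05) in R 4.3.3, and DESeq2 1.42.0 was an alternative. Comparisons of populations had the library as a block. A gene was named if it passed, its groups did not overlap (between populations, if it had 1 sign in all 4 libraries) and it reached 20 CPM in a group, up to 12 genes per direction, up to 6 per direction for interactions, besides a preset list of genes and the passing genes of the lists. Where fewer than 5 passed in a direction, the 5 of lowest p that did not were added. Shares carry exact Clopper-Pearson 95% intervals. Doublets were not removed, since the Scrublet caller of scanpy 1.11.5 marked almost no cells in some libraries at its own threshold. Leaving out the cells of highest score, at 0.8% per 1000 barcodes, was an alternative. The edgeR fit was tested on simulated data with a preset spread, the same for every gene. Other alternatives were the Vcan and F10 threshold, cells thinned to 10000 UMIs before the choice, under 10% mitochondrial UMIs, RLE scaling, no filter on low counts, a replicate block and leaving out each library. Gene positions are those of GENCODE M21 on GRCm38, which held 32158 of the 32285 gene identifiers. A few genes that met the rule are not reported here.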

Additional observations from a re-analysis of the deposited data

Results flagged for a closer look

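For 11 genes against Chil3-high monocytes and 17 against C1q-high macrophages the response to liproxstatin-1 in Vcan F10 monocytes differed from that in another population by a test of the difference itself, the interaction of population and treatment in edgeR at an adjusted p of at most 0.05. The 6 and 11 of them named by the rule for named genes are given here. Values are the log2 fold change in Vcan F10 monocytes minus that in the other population. Against Chil3-high monocytes they were -2.73 for Ccl5, -2.01 for Pdpn, -2.0 for Ly6a, -1.86 for Inhba, -1.71 for Ch25h and -1.20 for Hist1h2ap. All 6 lost the call when cells were gated after thinning to 10000 UMIs, and the control libraries of Chil3-high monocytes held 52 and 55 cells. Against C1q-high macrophages they were 1.48 for Cd38, 1.04 for Folr2, 0.99 for Mmp8, 0.82 for Apoe and 0.64 for Timp2. In the other direction they were -3.40 for Cd163, -1.14 for Cx3cr1, -1.03 for Napsa, -0.97 for Mefv, -0.96 for Fgr and -0.89 for Hspa1b. Of these 11 genes, 4 lost the call with the thinned gate, 6 with both Vcan and F10 required and 5 without the cells of highest doublet scores. Timp2 lost it in 7 of 12 other settings and Hspa1b in 6. Groups of 2 libraries are too small for a check on single outlying samples.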

How the results depend on the processing

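The labels' numbers showed no pairing of control with liproxstatin libraries, with a correlation of deviations from the group means of 0.0226 for control 1 with liproxstatin 1. With 2 libraries a group the value for control 1 with liproxstatin 2 is the same with its sign turned, so it is no second result. With the number as a replicate block 40 genes rose and 8 fell, among them all 16 called without it. Calls for liproxstatin-1 numbered 5 and 0 (rose and fell) with Vcan and F10 UMIs of at least 4, 85 and 38 without the low-count filter, and 1 to 150 and 0 to 53 with each library left out. Genes that fell were 1 with both Vcan and F10 required, 5 with at least 1 UMI and 5 by DESeq2. The difference in share was -0.234 percentage points with both genes required, -0.585 with the thinned gate, -0.774 with at least 1 UMI and -8.61 among barcodes with Ly6c2 and Csf1r. With both genes required and with the thinned gate the groups overlapped. Against Chil3-high monocytes 308 genes were lower with both genes required, and 258 were higher and 226 lower with the thinned gate. Leaving out each library gave 336 to 508 higher and 258 to 400.0 lower, the fewest without liproxstatin replicate 1. Counts against C1q-high macrophages stayed within 1.5 times under all 12 settings. Differences in response from Chil3-high monocytes, upward and downward, numbered 1 and 6 without doublet-like cells, 1 and 6 with both genes, 1 and 39 without the filter, and 1 to 12 and 24 to 49 with each library left out. There were 2 upward with at least 4 UMIs, 1 with at least 1 UMI, and 4 downward with the thinned gate. Those from C1q-high macrophages numbered 21 and 41 with the thinned gate, 51 and 95 without the filter, and 10 to 69 and 39 to 136 with each library left out, and 5 downward without doublet-like cells and 25 with both genes. Each setting was also run for 48 genes for liproxstatin-1, for 24 in each comparison of populations and for the 6 and 11 with a difference in response. Among these, signs turned for 10 genes not called for liproxstatin-1, and for Ch25h, whose difference was 0.30 with both genes required. With both genes required Ccl2 was at 0.038, Ccl7 at 0.45, Cxcl3 at -0.079, Il1a at -0.33 and Tnf at -0.12. Tnf was at -0.060 with at least 1 UMI and -0.033 by DESeq2, and with the thinned gate Ccl7 was at 0.15 and Cxcl3 at -0.60. Leaving out each library gave ranges of -0.38 to 0.10 for Ccl2, -0.30 to 0.025 for Ccl7, -0.36 to 0.84 for Cxcl10, -0.78 to 0.80 for Cxcl3, -0.029 to 0.25 for Gpx4, -0.17 to 0.48 for H2-Ab1, -0.54 to 0.10 for Hmox1, -0.21 to 0.37 for Hp, -0.53 to 1.13 for Il1a and -0.56 to 0.82 for Tnf. The cause of these changes was not tested. Depth limits genes near a few CPM and the Chil3-high control libraries. Data were also simulated with the same preset spread for every gene, not that of these data. There, interactions with Chil3-high monocytes were found for 16 of 100 genes at a log2 difference of 1 and 83 of 100 at 2.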

Other observations

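Ifnb1, the gene of interferon beta, had 0 UMIs in the Vcan F10 monocytes of both control libraries, 30 in liproxstatin replicate 1 and 1 in liproxstatin replicate 2. Of the 30, 28 came from 1 cell, so the value describes that cell and was not tested. The heat shock genes Hspa1a and Hspa1b, near copies of each other, were lowest in control replicate 2. Hspa1a was at 275, 52.7, 219 and 205 CPM, and Hspa1b at 262, 46.9, 174 and 152 CPM, in the order control replicates 1 and 2, liproxstatin replicates 1 and 2. The other 3 libraries stood at similar levels, so the spread lay within the control group.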
